A study of Mus musculus with 2 samples.

Results

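Heat shock, chaperone and co-chaperone genes were taken from the gene table by symbol: the Hsp70, Hsp110, Hsp90 and small heat shock protein families with Cryab, the mitochondrial chaperonins Hspd1 and Hspe1, the TRiC subunits, the DnaJA, DnaJB and DnaJC families, Bag1 to Bag6, Stip1, St13, Serpinh1, Hsf1 and Hsf2. The endoplasmic reticulum genes Hspa5, Dnajb9 and Dnajc3 were left out. This gave 87 genes of 23176 in the table, and no measured value entered the choice. The mRNA of a pair of mouse cell lines of striatal origin (embryonic day 14, strain background 129SvEv/CD1, fewer than 15 passages) had been sequenced. STHdhQ7 carries the genotype HdhQ7/Q7, and STHdhQ111 carries HdhQ111/Q111, an expanded CAG tract in both copies of the huntingtin gene. Both lines grew at 33 °C and spent 2 days at 39 °C before harvest, so every value below comes from cells held at the higher temperature. No sample kept at 33 °C was analysed here. Each sample title names 3 replicates, and the table gives 1 value per line that the authors combined over them.

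Chaperones bind unfolded protein and help it fold, stay soluble or be degraded. Hsp70 works in a cycle driven by ATP in which J-domain proteins deliver the client and stimulate ATP hydrolysis, while nucleotide exchange factors of the Hsp110 and Bag families release it. Hsp90 completes the folding of signalling proteins, TRiC encloses actin and tubulin, and the small heat shock proteins hold unfolded clients without ATP. Heat shock factor 1 (HSF1) raises many of these genes when unfolded protein accumulates. Several of the families, TRiC, Hsp70 and the J-domain protein DNAJB6 among them, are known to slow the aggregation of expanded polyglutamine protein, which is why their levels in these lines are of interest.

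The values are FPKM, fragments per kilobase of transcript scaled to the number of mapped fragments, so levels can be set side by side between genes. Depth per line is unknown, and the p-values and q-values are the authors', from Cuffdiff. A gene is referred to as called at a q of 0.05 or less. The standard error used below is the one the authors' deposited table implies, the log2 fold change divided by the test statistic, and the 95% intervals are built from it. The labels do not state whether the replicates came from separate cultures, and those errors may be technical. With 1 line of each genotype, the genotype and the history of the line cannot be told apart. In bulk RNA, fewer cells of a kind and less RNA per cell cannot be told apart either.

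Markers were used to check the label. Of 10 striatal neuron genes in the table, 9 were under 0.5 FPKM in both lines, and the dopamine receptor gene Drd1a was listed at 0 in both. Of the 6 tested neural progenitor markers, 4 were called lower (Sox2, Pax6, Nes and Lhx2) and 1 higher (Dlx2) in STHdhQ111. Over all tested genes 7.17% were called lower and 6.35% higher. The sum of the list was 3487 FPKM for STHdhQ7 and 2493 FPKM for STHdhQ111, most of it Vim (3303 and 2483 FPKM, not called), and without Vim it was 184 and 10.6 FPKM. Mesenchymal markers summed to 1045 and 2650 FPKM, a difference carried mostly by Col1a1 (452 and 1487 FPKM) and Col1a2 (11.5 and 533 FPKM). Of 8 tested, 3 were called higher (Col1a1, Col1a2 and Pdgfra), beside 6.35% of all tested genes. The log2 fold change was above 0 for 6 of the 8 and below 0 for Acta2 and Tagln. Of 8 microglial markers, 6 were under 0.5 FPKM in both lines. These shifts accompany every difference described below, and their part in it was not tested.

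Of the 87 genes, 76 had a test in the authors' deposited table and 11 did not. Among the 76 tested genes 2 were called lower in STHdhQ111, Hspb6 and Hspa4l, against a background of 7.17% of all tested genes. Dnajc15 was the 1 gene called higher, against a background of 6.35%. In both directions together 3 of 76 (3.95%) were called, where the share over all 12740 tested genes was 13.5% and over those averaging at least 1 FPKM 12.6%. At an unadjusted p under 0.05 in the authors' deposited table there were 5 of the 76, Cryab and Dnajc27 besides the called genes, which is 6.58% against 21.2% of all tested genes. The 11 genes without a test were all under 0.5 FPKM in both lines.

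Most chaperone transcripts differed little between the lines in size. On the log2 ratio of (FPKM + 0.5), on which changes of scarce transcripts come out too small, 65 of the 76 tested genes (85.5%) lay within 1.5-fold, compared with 67.1% of all tested genes. The median ratio was -0.13, beside -0.05 over all tested genes, and after recentring on the median of expressed genes it was -0.08. FPKM was lower in STHdhQ111 for 47 of the 76 (61.8%), beside 54.5% of all tested genes. The median absolute ratio was 0.24 over the chaperone genes and 0.36 over all tested genes. A small difference here is not evidence of equal levels, because the implied errors are wide. By the authors' deposited table, the interval of 25 of the 75 tested genes that have one stayed inside a 2-fold change either way, and for the other 50 it reached beyond.

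**Figure D1:**
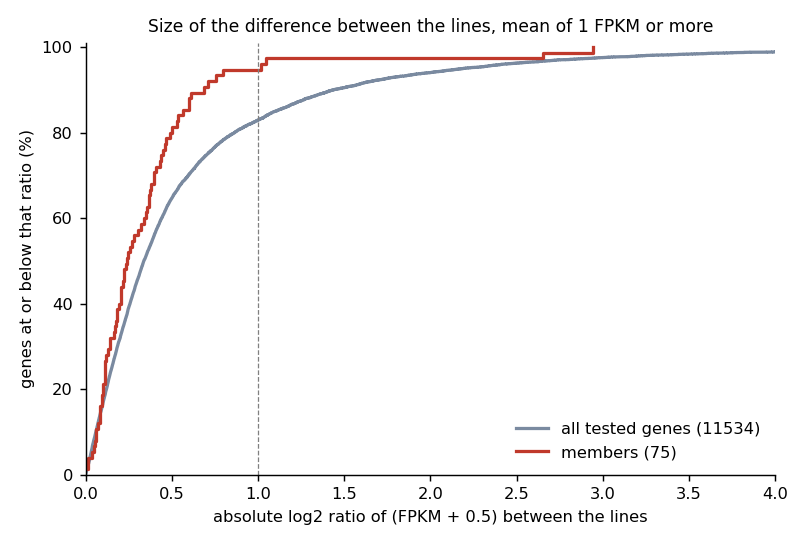
Cumulative share of genes (vertical axis, percent) at or below a given absolute log2 ratio of (FPKM + 0.5) between the lines (horizontal axis), for 75 chaperone genes and 11534 tested genes that averaged at least 1 FPKM. The dashed line marks a 2-fold difference, within which lay 94.7% of these chaperone genes and 82.9% of all genes of that level.

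Levels ranged from 0 to 1429 FPKM in STHdhQ7 cells. Hspa8, Hsp90ab1 and Serpinh1 were the top 3 in both lines, and the top 5 together held 50.7% of the summed FPKM of the 87 genes in STHdhQ7 and 49.6% in STHdhQ111. The whole set made up 1.66% of all FPKM in STHdhQ7 and 1.53% in STHdhQ111. There were 13 genes at 100 FPKM or more in STHdhQ7 and 14 in STHdhQ111. Across the 75 tested chaperone genes above 0 in both lines the Pearson correlation of log2 FPKM between the lines was 0.98. Across all 12647 such tested genes it was 0.82. Both are descriptions across genes that are not independent replicates. The sets are not matched for level, as 74 of the 75 and 11492 of the 12647 averaged at least 1 FPKM.

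**Figure D2:**
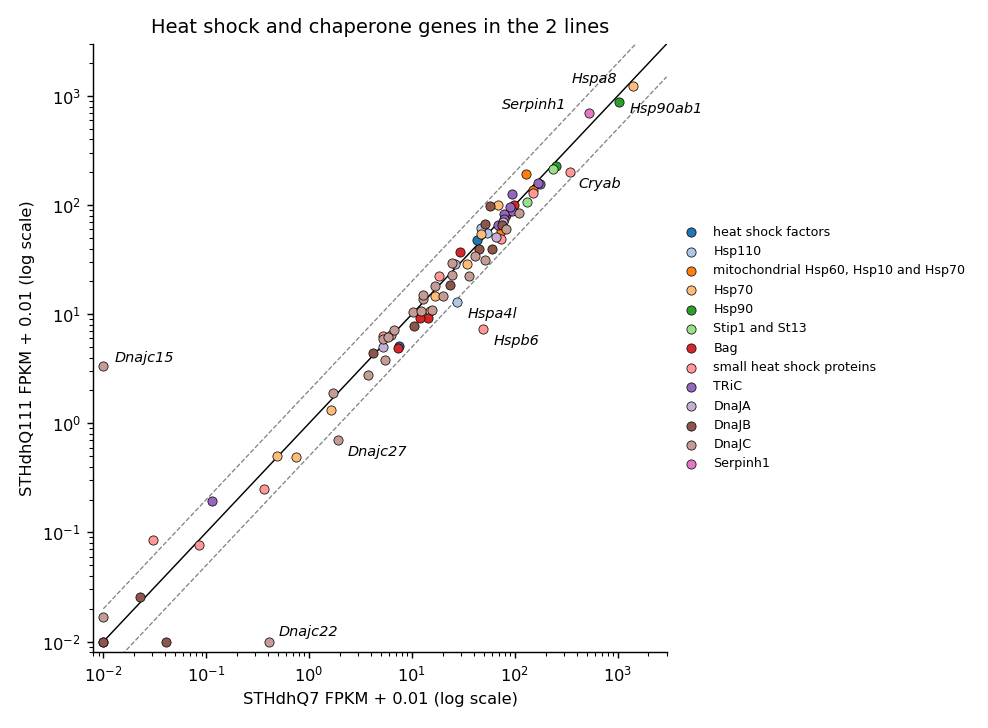
FPKM + 0.01 of the 87 genes in STHdhQ7 (horizontal axis) and STHdhQ111 (vertical axis), both on log scales, with 1 point per gene coloured by role, a solid line at equal levels and dashed lines at a 2-fold difference. Hspb6, Hspa4l, Dnajc27 and the untested Dnajc22 and Dnajb13 lie below the lower dashed line, and Dnajc15, listed at 0 in STHdhQ7, and the untested Hspb3 above the upper one.

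The 3 called genes are shown first with the 250 bases before a RefSeq start site (build GRCm38.p6). The series concerns DNA methylation, so CG dinucleotides, the sites it marks, are in capitals for Dnajc15 and Hspa4l. For Hspb6, whose window at the downstream of 2 RefSeq starts holds a TATA box sequence, TATAAA is in capitals. The windows are chr14:77874918-77875167 on the minus strand for Dnajc15, chr3:40745363-40745612 on the plus strand for Hspa4l and chr7:30553051-30553300 on the plus strand for Hspb6.
Dnajc15: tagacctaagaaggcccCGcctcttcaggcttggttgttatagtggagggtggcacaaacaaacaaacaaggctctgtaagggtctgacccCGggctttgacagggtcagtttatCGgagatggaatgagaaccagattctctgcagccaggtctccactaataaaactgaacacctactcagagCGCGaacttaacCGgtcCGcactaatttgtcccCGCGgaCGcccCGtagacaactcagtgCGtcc
Hspa4l: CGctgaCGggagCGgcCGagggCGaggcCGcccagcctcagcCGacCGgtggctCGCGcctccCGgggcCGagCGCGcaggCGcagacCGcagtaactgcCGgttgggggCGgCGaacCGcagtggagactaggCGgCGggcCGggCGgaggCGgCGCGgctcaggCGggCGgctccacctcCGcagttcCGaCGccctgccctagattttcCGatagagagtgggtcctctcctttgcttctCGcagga
Hspb6: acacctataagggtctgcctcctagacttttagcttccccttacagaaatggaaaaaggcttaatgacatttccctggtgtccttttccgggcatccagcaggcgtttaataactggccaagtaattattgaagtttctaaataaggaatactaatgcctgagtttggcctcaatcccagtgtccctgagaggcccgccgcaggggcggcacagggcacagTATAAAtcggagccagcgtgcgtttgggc
The Dnajc15 window holds 12 CG dinucleotides and that of Hspa4l holds 34. The Hspb6 window holds 8, and its TATAAA begins at position -29 from the start. Counted per gene at the start with the most, where Hspb6 has 15, the median over genes with a RefSeq promoter was 6, and over the 69 chaperone genes with one it was 19 (18 had no match). TATAAA on either strand occurred in 15.7% of all genes' windows of 300 bases and in 5 of the 69. The 27025 genes with a promoter were not filtered for expression, so neither comparison is matched for level. No methylation value was part of the data analysed here.

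Hspb6 encodes the small heat shock protein HSP20, which is known from smooth and cardiac muscle. STHdhQ7 cells had 48.9 FPKM of Hspb6 and STHdhQ111 cells 7.35 FPKM, a 6.65-fold lower level in the line with expanded huntingtin. The authors' deposited table puts this at -2.73 on the log2 scale, and the standard error it implies is 0.46 (95% interval -3.64 to -1.83, the authors' q = 1.3e-07). This was the furthest fall among the tested chaperone genes. Hspb6 lies on chromosome 7 at 31338321 to 31340458 (mm9, the build of all gene loci given here). The neighbouring gene Lin37, whose locus begins 1 base further on, and the next gene Psenen (52.6 and 43.1 FPKM) were not called. The smooth muscle genes Acta2 (342 and 311 FPKM) and Tagln (45.3 and 37.5 FPKM) were not called either.

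The other small heat shock proteins formed an abundant and a scarce set. Cryab (alphaB-crystallin), the most abundant, stood at 342 FPKM in STHdhQ7 cells and 202 FPKM in STHdhQ111 cells. The authors' deposited table gives Cryab a log2 fold change of -0.76 with an interval of -1.51 to -0.0039 and a q of 0.233, so it was not called. Hspb1 (HSP27), an inducible protein that protects the actin cytoskeleton, was listed at 150.1 and 129 FPKM, and Hspb8, the partner of BAG3 in selective autophagy, at 74.0 and 48.6 FPKM. Hspb11, a component of the intraflagellar transport machinery, was listed at 18.2 and 22.2 FPKM and Hspb2 at 5.27 and 6.34 FPKM. None of these was called. Hspb3, Hspb7 and Hspb9 were at most 0.353 FPKM and had no test. Summed FPKM of the 9 genes was 639 in STHdhQ7 and 416 in STHdhQ111. The share of Hspb6 in that sum was 7.65% in STHdhQ7 and 1.77% in STHdhQ111, and that of Hspb1 was 23.5% and 30.9%.

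The fall of Hspb6 was set against its relatives through the difference of their log2 fold changes, treating the implied errors as independent. Hspb6 minus Cryab was -1.98 with an implied standard error of 0.60 (95% interval -3.15 to -0.80). Hspb6 minus Hspb8 was -2.13 (-3.29 to -0.96), and Hspb6 minus Hspb1 was -2.51 (-3.70 to -1.33). All 3 intervals lie below 0. Hspb6 was picked for its fall, so these are descriptions and not tests.

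Hspa4l is a member of the Hsp110 family, distant Hsp70 relatives that act as nucleotide exchange factors. STHdhQ7 cells had 27.3 FPKM of Hspa4l and STHdhQ111 cells 13.0 FPKM, 2.10-fold lower. The authors' deposited table puts this at -1.07 on the log2 scale, and the standard error it implies is 0.39 (95% interval -1.84 to -0.30, the authors' q = 0.0486). The call rests close to the threshold and was lost under the stricter settings given in the closing part. The other genes of the family were not called. Hspa4 was listed at 53.4 and 55.2 FPKM, and the heat-inducible Hsph1 (HSP105) at 47.1 and 62.2 FPKM. Hspa4l minus Hspa4 was -1.12 on the log2 scale (95% interval -2.20 to -0.04), and Hspa4l minus Hsph1 was -1.47 (-2.53 to -0.41). Hspa4l was likewise picked for its fall, so these too are descriptions and not tests. Within the summed FPKM of the 3 genes Hspa4l held 21.3% in STHdhQ7 and 9.96% in STHdhQ111, while Hsph1 held 36.9% and 47.7%. The locus of Hspa4l is on chromosome 3 at 40549535 to 40594287.

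**Figure D3:**
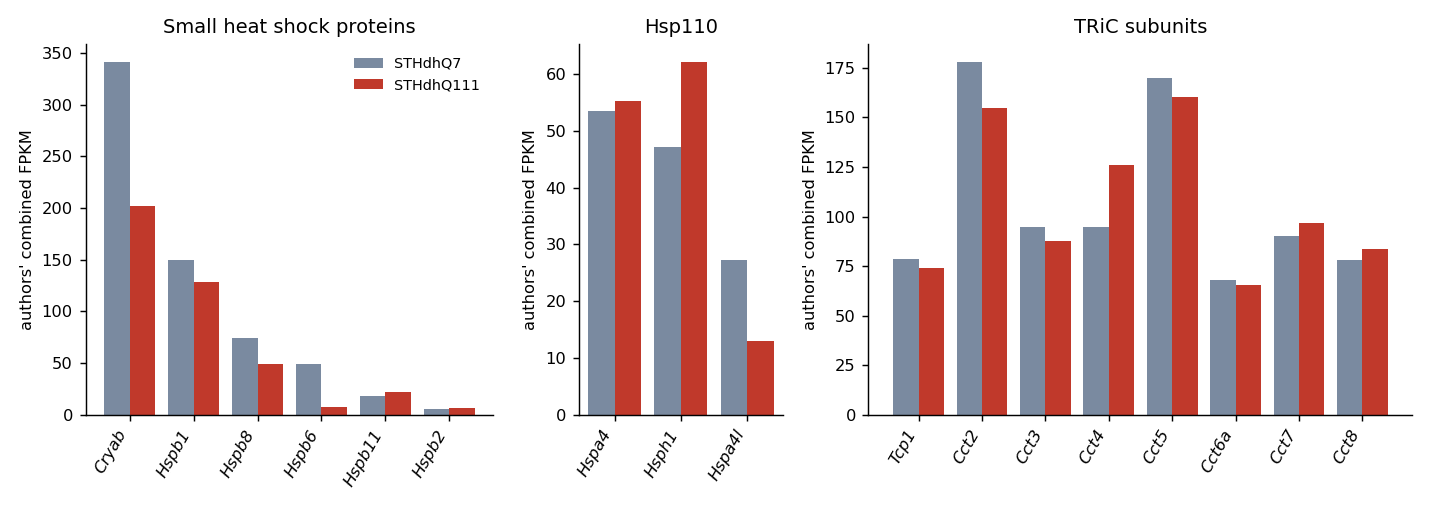
Combined FPKM (vertical axes, each from 0) of the tested small heat shock protein, Hsp110 and TRiC genes in STHdhQ7 (grey-blue) and STHdhQ111 (red), 1 bar per line with no replicate error available. Hspb6 falls from 48.9 to 7.35 FPKM and Hspa4l from 27.3 to 13.0 FPKM, while the 8 TRiC subunits stay between 65.6 and 178 FPKM.

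Dnajc15 encodes a J-domain protein of the inner mitochondrial membrane that is also known as methylation-controlled J protein, from its silencing by promoter methylation in tumour cells. Dnajc15 is listed at 0 for STHdhQ7 and had 3.34 FPKM in STHdhQ111 cells, which leaves no fold to give. The authors' deposited table gives Dnajc15 a p of 0.00671 and a q of 0.0497, with no usable statistic, as for each of the 93 tested genes with 1 line at 0. This call too lies close to the threshold and was lost at a q of 0.01 and under both other adjustments run. A filter of 1 FPKM in both lines removes Dnajc15 beforehand, because it is listed at 0 in STHdhQ7. It is the 1 chaperone gene at 1 FPKM or more in 1 line and under 0.1 FPKM in the other. Its paralogue Dnajc19, a J-domain subunit of the import motor, was listed at 19.9 and 14.6 FPKM. Dnajc15 lies on chromosome 14 at 78226024 to 78274724, and none of its words of 36 bases occurred in the transcripts of another gene.

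The remaining DnaJC genes, the largest and most varied J-domain class, held no further call. Of 25 genes 23 were tested, with a median ratio of -0.09. Dnajc8, a splicing-associated protein, was the most abundant at 109.9 FPKM in STHdhQ7 cells and 84.9 FPKM in STHdhQ111 cells. Dnajc9, a histone chaperone, followed at 82.6 and 60.3 FPKM. Dnajc27, a Rab-like GTPase with a J domain, was the gene nearest to a call, at 1.92 and 0.695 FPKM. For Dnajc27 the authors' deposited table has a log2 fold change of -1.46 (95% interval -2.61 to -0.32, q = 0.0800). Dnajc10, a disulfide reductase of the endoplasmic reticulum, was listed at 51.3 and 31.2 FPKM and Dnajc7, which bridges Hsp70 and Hsp90, at 36.3 and 22.4 FPKM. Both of these intervals in the authors' deposited table included 0 (-1.46 to 0.03 and -1.45 to 0.05). Dnajc5 (cysteine string protein), a chaperone of synaptic vesicles, was listed at 24.4 and 29.5 FPKM. The other 15 tested genes (Dnajc1, Dnajc2, Dnajc4, Dnajc11, Dnajc12, Dnajc13, Dnajc14, Dnajc16, Dnajc17, Dnajc18, Dnajc21, Dnajc24, Dnajc25, Dnajc28 and Dnajc30) ranged from 1.71 to 41.2 FPKM in STHdhQ7. Their log2 fold changes in the authors' deposited table lay between -0.51 and 0.21. The auxilin gene Dnajc6, a neuronal uncoating factor of clathrin-coated vesicles, was listed at 0 and 0.00667 FPKM.

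Among the DnaJB genes Dnajb6 stood highest on the side of STHdhQ111. Dnajb6, a suppressor of polyglutamine aggregation, had 56.9 FPKM in STHdhQ7 cells and 99.2 FPKM in STHdhQ111 cells. The authors' deposited table gives it a log2 fold change of 0.80 with an implied standard error of 0.49 (95% interval -0.16 to 1.76, q = 0.387). The interval includes 0 and the gene was not called. Dnajb1 (HSP40), the classical inducible partner of Hsp70, was listed at 51.4 and 66.5 FPKM. Dnajb2, known for acting on ubiquitylated and polyglutamine clients, was listed at 44.8 and 39.5 FPKM, and Dnajb11, a J protein of the endoplasmic reticulum, at 74.5 and 65.9 FPKM. Dnajb12, a membrane-bound J protein of the same organelle, had the lowest ratio of the class at 59.8 and 39.2 FPKM. Dnajb4, Dnajb5 and Dnajb14 ranged from 4.22 to 23.5 FPKM in STHdhQ7, with log2 fold changes from -0.42 to 0.07 in the authors' deposited table. Of 12 DnaJB genes 8 were tested and none was called. The other 4, Dnajb3, Dnajb7, Dnajb8 and Dnajb13, were at most 0.0309 FPKM, and Dnajb8, a close relative of Dnajb6 known from testis, was listed at 0 in both lines. The 4 DnaJA genes, general partners of Hsp70, were not called. Dnaja2 was listed at 77.0 and 69.8 FPKM and Dnaja1 at 65.5 and 50.5 FPKM. Dnaja3, the mitochondrial member, was listed at 26.4 and 28.6 FPKM and Dnaja4 at 5.28 and 5.04 FPKM.

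The constitutive Hsp70 Hspa8 (HSC70) was the most abundant chaperone transcript in both lines. STHdhQ7 cells had 1429 FPKM of it and STHdhQ111 cells 1224 FPKM. The stress-inducible pair Hspa1a and Hspa1b was detected in both lines, Hspa1a at 46.7 and 53.9 FPKM and Hspa1b at 69.1 and 100.3 FPKM. For Hspa1b the authors' deposited table has a log2 fold change of 0.54, and the standard error it implies is 0.40 (95% interval -0.26 to 1.33, which includes 0). Hspa8 made up 89.5% of the summed FPKM of the 6 cytosolic genes (Hspa8, Hspa1a, Hspa1b, Hspa1l, Hspa2 and Hspa14) in STHdhQ7 and 86.0% in STHdhQ111. Hspa2, an Hsp70 best known from spermatogenesis, was listed at 16.7 and 14.8 FPKM. Hspa13, a microsomal ATPase, stood at 14.9 and 10.7 FPKM and Hspa14, a ribosome-associated Hsp70, at 34.0 and 28.7 FPKM. The divergent Hsp70 genes Hspa12a (0.473 and 0.492 FPKM) and Hspa12b (0.733 and 0.483 FPKM) were scarce. None of the 8 tested Hsp70 genes was called.

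The separate values of the inducible pair are uncertain. Hspa1b and Hspa1a lie 10120 bases apart on chromosome 17, and only 30.8% of the words of 36 bases of Hspa1a and 33.5% of those of Hspa1b occurred in no other gene's transcripts. For Hspa1l, which begins 546 bases beyond Hspa1a, the share was 28.4%, and for Hspa8 it was 56.8%. The sources used here give neither the read length nor the handling of reads with several matches. Of all 87 genes, 67 had at least 90% unique words and 8 had under 60%, Hsp90aa1 (49.8%) and Hspb1 (46.0%) among them. The part of shared reads in the values of Hsp90aa1 and Hspb1, and in ratios and shares built on them, was not tested.

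Both cytosolic Hsp90 genes were abundant. Hsp90ab1, the constitutive form, had 1036 FPKM in STHdhQ7 cells and 882 FPKM in STHdhQ111 cells, and the inducible Hsp90aa1 at 255 and 227 FPKM. The ratio of Hsp90ab1 to Hsp90aa1 was 4.07 and 3.88, with 91.5% of the words of Hsp90ab1 and 49.8% of those of Hsp90aa1 unique. Stip1 (HOP), the adaptor that hands clients from Hsp70 to Hsp90, was listed at 132 and 107 FPKM. St13 (HIP), which stabilises the ADP-bound Hsp70, was listed at 235 and 216 FPKM. None of these 4 was called. Among the Bag genes, Bag1 (98.4 and 99.6 FPKM) and Bag6 (82.6 and 82.0 FPKM) were the most abundant. Bag3, the HSF1 target that directs aggregates to autophagy with Hspb8, was listed at 29.7 and 37.2 FPKM. Bag3 per Hspb8 was 0.401 in STHdhQ7 and 0.764 in STHdhQ111, and the difference of their log2 fold changes, 0.93, had an interval that included 0 (-0.11 to 1.97). Bag2 had the lowest ratio, at 14.2 and 9.15 FPKM, beside Bag4 at 7.27 and 4.87 FPKM and Bag5 at 12.1 and 9.29 FPKM. None of the 6 was called.

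TRiC is a ring built of 8 different subunits in equal number. The 8 subunit genes (Tcp1, Cct2, Cct3, Cct4, Cct5, Cct6a, Cct7 and Cct8) were all expressed, with a median of 92.4 FPKM in STHdhQ7 cells and 92.1 FPKM in STHdhQ111 cells. The highest subunit exceeded the lowest 2.61-fold in STHdhQ7 and 2.44-fold in STHdhQ111. Cct2 (178 and 155 FPKM) and Cct5 (169.9 and 160.4 FPKM) were the highest in both lines and Cct6a (68.2 and 65.6 FPKM) the lowest. For 7 of the 8 the interval in the authors' deposited table stayed inside a 2-fold change either way. The exception was Cct4, at 94.8 and 125.7 FPKM, whose interval ran from -0.33 to 1.15. Cct6b, a subunit form known from testis, was listed at 0.105 and 0.184 FPKM and had no test.

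**Figure D4:**
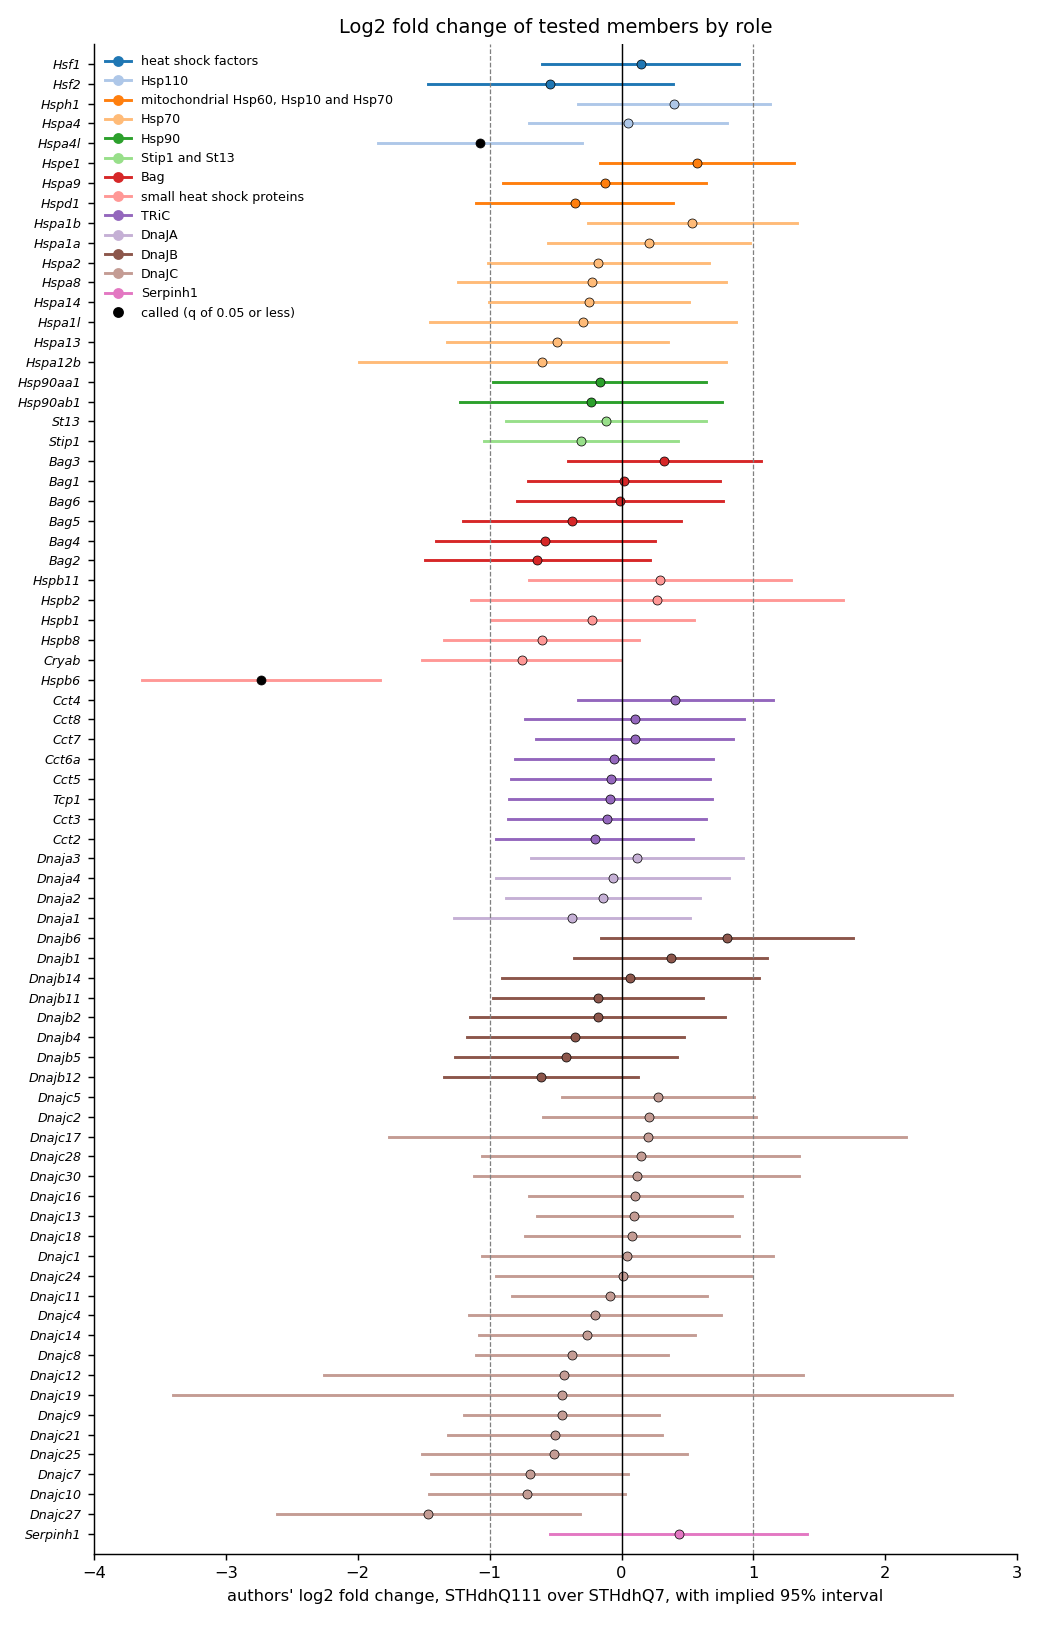
Log2 fold change of the 75 tested genes above 0 in both lines (horizontal axis, the authors' deposited values, STHdhQ111 over STHdhQ7), 1 gene per line, coloured by role, with bars for the implied 95% interval, black points for the called genes and dashed lines at 2-fold changes. The bars of Hspb6, Hspa4l, Dnajc27 and Cryab do not reach 0, and those of the other genes do.

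Hspd1 (HSP60) and Hspe1 (HSP10) form the mitochondrial chaperonin and its lid, and Hspa9 (mortalin) is the mitochondrial Hsp70. Hspd1 had 73.9 FPKM in STHdhQ7 cells and 57.7 FPKM in STHdhQ111 cells, whereas Hspe1 was listed at 129.9 and 193 FPKM. Their point estimates thus went opposite ways. The ratio of Hspe1 to Hspd1 was 1.76 in STHdhQ7 and 3.34 in STHdhQ111, with a difference of the log2 fold changes of 0.92 (95% interval -0.12 to 1.97), which includes 0. Words unique to the gene made up 50.5% for Hspd1 and 71.9% for Hspe1, and the part of shared reads in either value was not tested. Hspa9 was listed at 151 and 138 FPKM. None of the 3 was called.

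Hspd1 and Hspe1 lie head to head on chromosome 1, with 215 bases between their loci, and are known to share a promoter. Heat shock elements, the binding sites of HSF1, are runs of alternating GAA and TTC units. The window before Hspe1 (GRCm38.p6, chr1:55087898-55088147, plus strand) is shown with elements of 3 units in capitals. Dnajb6, the tested gene above 0 in both lines with the highest positive fold change, is shown likewise at the upstream of its 2 starts (chr5:29735648-29735897, plus strand). The Hspa1a (chr17:34972157-34972406) and Hspa1b (chr17:34959239-34959488) windows, both on the minus strand, are shown with elements of 2 units in capitals.
Hspe1: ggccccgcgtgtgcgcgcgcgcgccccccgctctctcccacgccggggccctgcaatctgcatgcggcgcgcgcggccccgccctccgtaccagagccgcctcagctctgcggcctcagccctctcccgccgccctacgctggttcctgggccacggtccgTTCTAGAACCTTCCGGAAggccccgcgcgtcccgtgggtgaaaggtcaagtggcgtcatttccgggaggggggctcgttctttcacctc
Dnajb6: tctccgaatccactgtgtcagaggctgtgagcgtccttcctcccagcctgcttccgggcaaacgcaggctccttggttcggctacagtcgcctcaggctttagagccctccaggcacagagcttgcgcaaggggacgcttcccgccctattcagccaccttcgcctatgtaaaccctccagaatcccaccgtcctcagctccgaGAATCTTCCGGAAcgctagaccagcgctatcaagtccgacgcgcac
Hspa1a: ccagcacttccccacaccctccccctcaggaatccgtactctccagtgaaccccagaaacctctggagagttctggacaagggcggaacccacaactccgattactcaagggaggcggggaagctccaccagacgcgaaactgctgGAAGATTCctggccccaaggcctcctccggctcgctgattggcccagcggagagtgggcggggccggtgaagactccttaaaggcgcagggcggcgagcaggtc
Hspa1b: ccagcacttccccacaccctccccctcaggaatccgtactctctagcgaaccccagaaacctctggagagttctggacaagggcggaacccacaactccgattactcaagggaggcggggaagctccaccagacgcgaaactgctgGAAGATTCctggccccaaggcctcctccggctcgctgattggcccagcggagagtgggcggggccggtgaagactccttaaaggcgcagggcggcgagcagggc
The Hspe1 window holds 2 overlapping elements that together span 18 bases, and the element of Dnajb6 begins at position -46 from the start. The Hspa1a and Hspa1b windows differ at 3 of 250 bases, and the marked element begins at position -104 in both.

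The motif of 3 units, searched as GAANNTTCNNGAA and TTCNNGAANNTTC, occurred in the windows of 300 bases (250 before and 50 after a start) of 4 of the 69 matched chaperone genes (5.80%) and of 0.662% of all genes. The 4 were Dnajb6, Hspd1, Hspe1 and Hsph1, where it lies after the start. Hspd1 and Hspe1 share the same 2 elements, so the 4 genes stand for 3 separate promoters. Of these, Dnajb6, Hspe1 and Hsph1 had more FPKM in STHdhQ111 and Hspd1 less, and none was called. The motif of 2 units, GAANNTTC or TTCNNGAA, which is contained in the longer one, occurred in 19 of the 69 (27.5%) and in 17.0% of all genes. Among the 18 of these that were tested Hspb6 alone was called, its element beginning at position -120 in the window printed above, and the median ratio was -0.14. Over the 41 tested genes whose windows lacked an exact match to it the median was -0.17. Dnajb1 matched neither motif, and Hspa1a and Hspa1b matched that of 2 units alone. Only exact letters were searched, so a window without a match is not shown to lack an element. The 18 genes without a promoter match, Hspa8, Hsp90aa1, Cryab and Hsf1 among them, were not searched. All genes here were again not filtered for expression. A match is a run of letters and does not show binding.

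Neither heat shock factor of the set was called. Hsf1, the master factor of the heat shock response, had 43.2 FPKM in STHdhQ7 cells and 47.7 FPKM in STHdhQ111 cells, and its interval in the authors' deposited table ran from -0.60 to 0.89. Hsf2, a factor active in development, was listed at 7.47 and 5.14 FPKM (-1.47 to 0.39). Of 9 genes listed as heat-inducible, Hspa1a, Hspa1b, Hsph1, Hspb1, Dnajb1, Hsp90aa1, Hspa8, Bag3 and Cryab, none was called, beside 13.5% of all tested genes. A list of 9 genes is too short to set against that share. The list holds Hspa8, named above as the constitutive Hsp70, whose ratio was -0.22. It leaves out Hspe1, Hspd1 and Dnajb6, whose windows hold the motif of 3 units, so the split below depends on the choice of genes. The ratios of the 9 genes split, 5 above 0 (Hspa1a, Hspa1b, Hsph1, Dnajb1 and Bag3) and 4 below. Their median was 0.21, beside -0.05 over all tested genes, and their range -0.75 to 0.53. Hspa1a shares 62.3% of its words with Hspa1b, and Hspa1b 66.0% with Hspa1a, so these 2 are not separate observations. By unadjusted p in the authors' deposited table only Cryab of these 9 was under 0.05 (11.1%, beside 21.2% of all tested genes).

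Serpinh1 (HSP47), the collagen chaperone of the endoplasmic reticulum, was the third most abundant gene of the set. STHdhQ7 cells had 523 FPKM of it and STHdhQ111 cells 706 FPKM. For Serpinh1 the authors' deposited table has a log2 fold change of 0.43, and the standard error it implies is 0.50 (95% interval -0.54 to 1.41), and it was not called. Of 16 genes for its collagen clients and collagen-modifying enzymes, 6 were called higher, beside 6.35% of all tested genes, and 2 lower (Col4a1 and Leprel1), beside 7.17%. Their summed level was 1444 FPKM for STHdhQ7 and 3602 FPKM for STHdhQ111, a difference carried mostly by Col1a1 (452 and 1487 FPKM) and Col1a2 (11.5 and 533 FPKM).

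Other chaperones and co-factors outside the set were read from a separate list of 57 genes. Of these 56 were in the table and 54 were tested, of which 1 was called higher and none lower (1.85% called, beside 13.5% of all tested genes). The median ratio was -0.12, beside -0.05 over all tested genes, and FPKM was lower in STHdhQ111 for 40 of the 54 (74.1%), beside 54.5% of all tested genes. The gene called higher was Hsf4, a heat shock factor best known from the lens. Hsf4 rose from 0.881 FPKM in STHdhQ7 to 9.61 FPKM in STHdhQ111, 10.9-fold. The authors' deposited table puts Hsf4 at 3.45 on the log2 scale, and the standard error it implies is 0.72 (95% interval 2.03 to 4.87, q = 4.6e-05). Hsf4 lies on chromosome 8 at 107793701 to 107799745, 474 bases from Fbxl8 (7.79 and 7.66 FPKM, not called) and 601 bases from Nol3, which fell from 4.71 to 0.900 FPKM. The library method is not described as marking strand, so reads from overlapping transcripts of neighbours could not be told apart. The 3 most abundant genes of this list, the polyubiquitin gene Ubb (1369 and 992 FPKM), calreticulin (Calr, 969 and 783 FPKM) and the excluded Hspa5 (597 and 484 FPKM), were not called.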

How the data were processed

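Per the labels' protocols, mRNA captured on oligo(dT) beads was fragmented and copied with random primers. The submitters' processing notes name Cuffdiff, Cufflinks 2.0.2, TopHat 1.4.0, Bowtie 0.12.7 and mm9. The sources used here give no options, annotation, read length or depth. The deposited FPKM are combined over replicates by the authors, with their log2 fold change, p-value and q-value, per the file headers. No test of the present work and no leaving out of a replicate was possible. As a check, each deposited p-value was recomputed from its statistic (largest gap 2.7e-06, two-sided normal, genes above 0 in both lines) and each q-value by Benjamini-Hochberg adjustment of all 12740 tests (largest gap 2.2e-06). Locus starts were read as 0-based and raised by 1.

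Ratios used a pseudocount of 0.5. By rule, values are given for called genes, for the 2 most abundant genes of each family and its extreme fold changes either way (at least 1 FPKM in both lines), for Hsf1, Hsf2, 9 heat-inducible genes and neighbouring pairs. Further genes were added after their values were seen. Genes and lists were chosen with earlier results of these data known. Words of 36 bases were compared on both strands with GENCODE M21 transcripts, and promoter windows came from RefSeq (GRCm38.p6, 69 of 87 symbols matched). Alternatives covered threshold, adjustment, filter, fold minimum, pseudocount, scaling and choice of members. Steps were run on simulated fold changes drawn with the implied errors themselves, without replicates and without genes absent from a line. That run checks the code, and it cannot show whether the implied errors or the calls are sound. Python 3.11.15, numpy 2.4.6, pandas 2.3.3, scipy 1.17.1 and matplotlib 3.10.9 were used.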

Additional observations from a re-analysis of the deposited data

How the results depend on the processing

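Only the call of Hspb6 held under every alternative threshold, filter and adjustment run. Genes called lower numbered 1 at a q of 0.01 and at a fold of at least 4. Hspa4l, 2.10-fold lower, could not pass that fold minimum, so no conclusion is drawn from its loss there. Genes called lower also numbered 1 after Benjamini-Hochberg adjustment over genes averaging at least 1 FPKM, and after Bonferroni adjustment. In either direction, the calls were 1.32% of the chaperone genes and 9.61% of all tested genes at a q of 0.01. At a fold of at least 4 they were 2.63%, beside 8.23% of all tested genes. After these adjustments they were 1.32%, beside 11.1% and 4.53% of all tested genes. The 11.1% is a share of all 12740 tested genes, though only the 11534 averaging at least 1 FPKM could be called. Genes called higher numbered 0 at a q of 0.01, with 1 FPKM or more required in both lines, and under both other adjustments. That filter leaves out Dnajc15 beforehand, as it is listed at 0 in STHdhQ7, so no conclusion is drawn from its loss there. With 1 FPKM or more required in both lines, 2.63% of the chaperone genes and 7.50% of all tested genes were called. Both shares also count tested genes below that level, which could not be called. At an unadjusted p under 0.05 from Cuffdiff, 4 were lower and 1 higher, together 6.58% beside 21.2% of all tested genes. At a q of 0.10, 3 were called lower, Dnajc27 being added, and 1 higher, together 5.26% beside 16.1% of all tested genes. The median ratio of the set ranged from -0.14 to -0.08 over its alternatives. All 375 values of single genes under other pseudocounts and scalings moved by less than their implied error. The scalings shifted every gene alike, by at most 0.05 on the log2 scale, and the smallest implied error was 0.37. For the scalings that outcome was therefore fixed beforehand, and no conclusion is drawn from it. Under recentring 1 gene changed sign. No paired analysis was possible because the replicates were combined by the authors. Unknown depth limits all values near 0, Dnajc15 in STHdhQ7 included.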

Other observations

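Some values of the set belong to no comparison above. Dnajc22 was listed at 0.399 FPKM in STHdhQ7 and 0 in STHdhQ111, and it has no test status although the authors' deposited table prints a p of 0.00274 for it. Dnajb13, a protein of the ciliary axoneme, was listed at 0.0309 FPKM in STHdhQ7 and 0 in STHdhQ111. Of 5 cilium genes listed, 4 had values and 2 were tested. Those tested, Foxj1 (10.3 and 0.408 FPKM) and Rsph1 (6.36 and 1.20 FPKM), were both called lower, beside 7.17% of all tested genes. Dnaic1 (0.180 and 0.0973 FPKM) and Tekt1 (0 in both lines) had no test. Dnajb13 had no test either, so no shared fall can be read from its value. The gene next to Hspa4l in the table, the centriole kinase gene Plk4, begins 9585 bases beyond it and fell from 7.98 to 2.47 FPKM (the authors' deposited table, q = 0.00716). Cryab and Hspb2, separated by 403 bases on chromosome 9, had a ratio of 64.9 in STHdhQ7 and 31.9 in STHdhQ111, and the difference of their log2 fold changes (-1.02, 95% interval -2.62 to 0.57) included 0.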
